A study of Mus musculus with 10 samples.

Results

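Guca2a, Guca2b and Gucy2c, the genes of the peptide hormones guanylin and uroguanylin and of their shared receptor, were taken by name from the deposited tables, where they are 3 of 23364 genes. The libraries hold poly(A) RNA of colon crypts, the epithelial glands, which had been shaken off the distal part of the mouse colon in EDTA. The AOM+DSS group (3 libraries) came from mice that received the carcinogen azoxymethane and afterwards dextran sulfate sodium, and the submitters describe it as a cancer that inflammation and azoxymethane induce. The DSS group (4 libraries) came from mice given dextran sulfate sodium, a polymer that injures the colon lining and causes colitis. The control group (3 libraries) came from untreated mice. No strain, age, dose or number of animals is given by the sources used here. Nor do the labels say that the libraries of a group came from separate mice, so the p-values reflect the spread between libraries only, which may be technical.

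Guanylin and uroguanylin are made by epithelial cells as longer precursors and are secreted into the gut lumen. They bind guanylate cyclase C, the product of Gucy2c, a receptor on the apical membrane of the epithelium whose inner domain makes cyclic GMP. Cyclic GMP acts through a membrane-bound protein kinase to open the chloride channel CFTR and to hold back the sodium-proton exchanger NHE3, so that salt and water stay in the lumen, and the heat-stable toxin of enterotoxigenic bacteria imitates both hormones. In the colon guanylin is the main form, made by mature surface cells, while uroguanylin is better known from the small intestine. Loss of guanylin is a known feature of human colorectal tumours.

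Both hormones lie at the carboxyl end of their precursors, so the last 48 bases of each coding sequence before the stop codon (16 codons) are shown, because this stretch is what the receptor sees and what makes these transcripts related. They are read 5′ to 3′ from the GENCODE M21 annotation of GRCm38, in which both genes lie on chromosome 4, Guca2a on the plus strand and Guca2b on the minus strand. Capitals mark the cysteine codons, whose products form the disulfide bridges of the hormones.
Guca2a: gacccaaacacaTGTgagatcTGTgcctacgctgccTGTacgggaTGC
Guca2b: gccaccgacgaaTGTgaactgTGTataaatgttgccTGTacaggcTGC
Aligned without a gap, 31 of 48 bases are identical (64.58%), and all 4 cysteine codons of each fall in the same place.

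The promoters are shown because both peptide genes lie next to each other and yet gave different values below. The 150 bases before each start come from RefSeq (GRCm38.p6, chr4:119637582-119637731 on the plus strand for Guca2a and chr4:119658946-119659095 on the minus strand for Guca2b). Capitals mark AGATAA, the motif of GATA factors, searched on both strands.
Guca2a: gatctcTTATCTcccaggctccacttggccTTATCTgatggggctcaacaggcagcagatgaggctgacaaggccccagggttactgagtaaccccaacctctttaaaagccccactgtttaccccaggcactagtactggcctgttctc
Guca2b: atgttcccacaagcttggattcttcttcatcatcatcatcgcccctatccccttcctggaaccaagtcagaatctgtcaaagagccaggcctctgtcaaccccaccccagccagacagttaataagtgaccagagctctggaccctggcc
Over the whole window of the table, 250 bases before to 50 after the start, AGATAA is found at 2 places for Guca2a, 144 and 120 bases before the start, and at 0 for Guca2b, and TTTAT, a core of the CDX motif, in neither window. Of 32851 promoters of this length, 11.18% hold AGATAA and 40.01% TTTAT. These matches describe the letters and are not shown to be bound here.

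The deposited tables give group means of normalized reads, and whole reads per library were worked out from these means for all 3 genes in all 10 libraries. Within a group the libraries are lettered by falling depth (a is deepest), since the solution does not tell which number of the labels each one is. The recovered reads came to between 12191270 and 23509031 per library. DSS libraries a and b stood apart from c and d: across 11171 genes the rank correlation (Spearman's rho) of GC content with a library's deviation from the mean of all libraries was -0.316 and -0.318, against 0.350 and 0.366 in c and d, and Pearson's r was 0.971 within a and b, 0.991 within c and d and 0.929 to 0.952 between them. The 10 fibroblast and smooth muscle markers summed to 716.1, 444.2 and 11555 normalized reads in AOM+DSS libraries a to c, 251.4 to 394.7 in DSS, and 225.9, 2402 and 97.4 in control libraries a to c. The 10 immune markers summed to 5046, 7661 and 7882 in AOM+DSS, 16187, 7288, 2478 and 2821 in DSS libraries a to d, and 572.5, 4636 and 371.8 in control. Of 10 pan-epithelial markers, which include Epcam and Krt8, 0 passed in the authors' DESeq comparison with either treatment at an adjusted p of 0.05. Limma, run on the 6 with recovered reads, also called 0, and 1 had an unadjusted p under 0.05 by either tool in each comparison. The same 6 summed to 53037 to 97076 normalized reads in DSS, 61431 to 68429 in AOM+DSS and 65067 to 68635 in control. Calls were few over all genes as well, at 5.54% higher and 3.35% lower in AOM+DSS and 2.61% and 1.78% in DSS. A count of 0 in 10 is therefore not a result about the epithelial content. The mean of Epcam was 28957 normalized reads in AOM+DSS, 28156 in DSS and 24719 in control in the authors' deposited tables, so this epithelial marker was abundant in every group.

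All 3 genes were expressed in all 10 libraries, with guanylin far above the other pair. Per kilobase of transcript (594 bases for Guca2a, 605 for Guca2b and 3863 for Gucy2c), Guca2a averaged 11488 ± 6628 normalized reads in AOM+DSS, 23972 ± 12835 in DSS and 20397 ± 2748 in control (SD, n = 3, 4 and 3). By this level it ranked 81 of 16711 genes in AOM+DSS, 14 of 16388 in DSS and 27 of 16203 in control. Gucy2c averaged 1458 ± 34.4 per kilobase in AOM+DSS, 1414 ± 170 in DSS and 1725 ± 173 in control. Guca2b averaged 813 ± 220 per kilobase in AOM+DSS, 1139 ± 259 in DSS and 549 ± 53.0 in control, where it ranked 3008. In AOM+DSS and in control the libraries kept the order Guca2a, Gucy2c, Guca2b without overlap between genes. In DSS the ranges of Gucy2c (1232 to 1608) and Guca2b (809 to 1413) overlapped, and library d had Guca2b above Gucy2c, so those neighbours did not differ beyond their spread there.

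**Figure D1:**
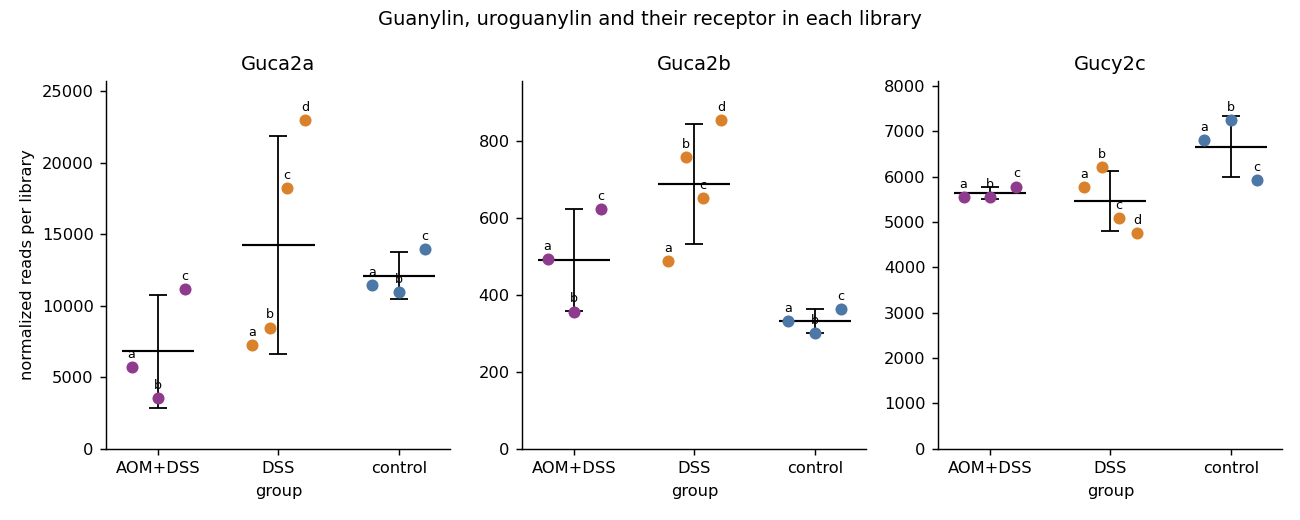
Normalized reads (vertical axes, from 0) of Guca2a, Guca2b and Gucy2c in each library of the AOM+DSS, DSS and control groups (horizontal axes). Points are libraries with their letters, horizontal lines are group means and bars are SD. Guca2b lies above all controls in all 4 DSS libraries, while Guca2a is low in DSS libraries a and b and high in c and d.

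Uroguanylin was the member that rose in DSS. Its gene Guca2b had 489, 759, 653 and 855 normalized reads in the DSS libraries (a to d), while the controls had 332, 300.2 and 364. Every DSS library lay above every control library. The mean was 689 ± 157 in DSS and 332 ± 32.1 in control (SD, n = 4 and 3), a 2.07-fold difference (log2 1.05), and passed 0.05 in the authors' deposited table with an adjusted p of 0.0106. In that comparison 2.61% of 18099 genes tested were called higher and 1.78% lower, and the libraries of both groups were apart, with DSS higher, for 12.6% and, with DSS lower, for 11.7% of 13447 genes whose mean reached 10. As these are bulk samples, a change in the number of cells of a type and a change in RNA per cell cannot be told apart. The summed immune markers of DSS libraries a and b (above) exceeded every control and those of c and d did not, and their part in the Guca2b values was not tested. Limma gave 1.02 ± 0.19 on the log2(normalized reads + 1) scale (SE, adjusted p = 0.0203). By limma the call was lost without DSS library b (adjusted p = 0.0501), without control library a (adjusted p = 0.107) and without control library c (adjusted p = 0.0846), at log2 values of 0.97, 1.03 and 1.09. The difference was above 0 in both sets of DSS libraries, at 0.88 with a and b alone (adjusted p = 0.0426 by limma) and 1.17 with c and d alone (adjusted p = 0.00841 by limma). These sets were chosen after the values had been seen, so their p-values are no separate support.

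In AOM+DSS Guca2b lay between the other groups. It had 494, 357 and 623 normalized reads in AOM+DSS libraries a to c, against 332, 300.2 and 364 in control. Library b lay within the control range and the others lay above it. The mean of 492 ± 133 in AOM+DSS, against 332 ± 32.1 in control (SD, n = 3 each), gave a log2 value of 0.57 that did not pass in the authors' deposited table (adjusted p = 0.305). In that comparison 5.54% of 18334 genes tested were called higher and 3.35% lower. Limma put the difference at 0.53 (95% interval 0.05 to 1.02, adjusted p = 0.114). It was 0.74 (adjusted p = 0.0449 by limma) without AOM+DSS library b, the lowest of its group in Guca2b. Leaving out any other single library gave 0.34 to 0.60 (adjusted p of 0.193 to 0.261 by limma). The difference also passed by limma once the trends on GC content and length had been removed, at 0.64 (adjusted p = 0.0285).

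Guanylin gave no single direction in DSS. Guca2a had 7247, 8481, 18268 and 22962 normalized reads in the DSS libraries (a to d), while the controls had 11434, 10935 and 13978. Libraries a and b lay below all controls and libraries c and d above all of them. The mean was 14239 ± 7624 in DSS and 12116 ± 1632 in control (SD, n = 4 and 3), and the log2 value of 0.23 did not pass in the authors' deposited table (adjusted p = 1). By limma the difference was 0.07 (95% interval -0.81 to 0.95), an interval wide enough to hold changes in either direction. With DSS libraries a and b alone it was -0.62 (adjusted p = 0.0420 by limma), and with c and d alone it was 0.77 (adjusted p = 0.0263 by limma), so the sign followed the set of libraries. These sets were chosen after the values had been seen, when a and b lay below and c and d above all controls. Their p-values therefore add no support. The same sets differ in their GC trend, in their length trend, in depth and in immune markers. The rank correlation of transcript length with a library's deviation was 0.429 and 0.326 in a and b. It was -0.357 and -0.381 in c and d, and its part in the Guca2a values of single libraries was not tested. The summed immune markers (above) were higher in DSS libraries a and b than in c and d. The absorptive colonocyte markers, of the cells that make guanylin, summed to 116999 and 105675 normalized reads in a and b. They came to 196158 and 200093 in c and d, against 133602 to 176396 in control. Other epithelial lists split the same way. Goblet cell markers summed to 60153 and 66745 in a and b, 93963 and 101743 in c and d, and 68657 to 80165 in control. Pan-epithelial markers summed to 53037 and 60583 in a and b, 85461 and 97076 in c and d, and 65067 to 68635 in control. The part of these markers in the Guca2a values was not tested. With the GC and length trends removed the limma difference was 0.13 (95% interval -0.39 to 0.64, adjusted p = 0.750), and its SE was 0.226 in place of 0.388, so the spread was narrower on that scale.

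In AOM+DSS guanylin lay lower on average without passing the test. Guca2a had 5737, 3544 and 11190 normalized reads in AOM+DSS libraries a to c, against 11434, 10935 and 13978 in control. Libraries a and b lay below all controls, and library c lay within the control range. The mean of 6824 ± 3937 in AOM+DSS, against 12116 ± 1632 in control (SD, n = 3 each), was 0.563 of the control mean, a log2 value of -0.83 (adjusted p = 0.446, from the authors' deposited table). Limma gave -0.98 (95% interval -1.82 to -0.14, adjusted p = 0.0999). Leaving out any single library other than AOM+DSS library c gave -1.05 to -0.59 (adjusted p of 0.121 to 0.274 by limma). Without AOM+DSS library c, the highest of its group in Guca2a, the difference was -1.42 and passed (adjusted p = 0.0107 by limma). That library is also the one rich in fibroblast and smooth muscle markers (above). Its absorptive colonocyte markers summed to 151016 normalized reads, where libraries a and b had 104747 and 94540. Its goblet cell markers summed to 72899, against 57112 and 48357 in a and b. Its stem cell and proliferation markers summed to 12135, against 21961 and 21047 in a and b and 12162 to 14992 in control. The part of these markers in the Guca2a values was not tested.

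**Figure D2:**
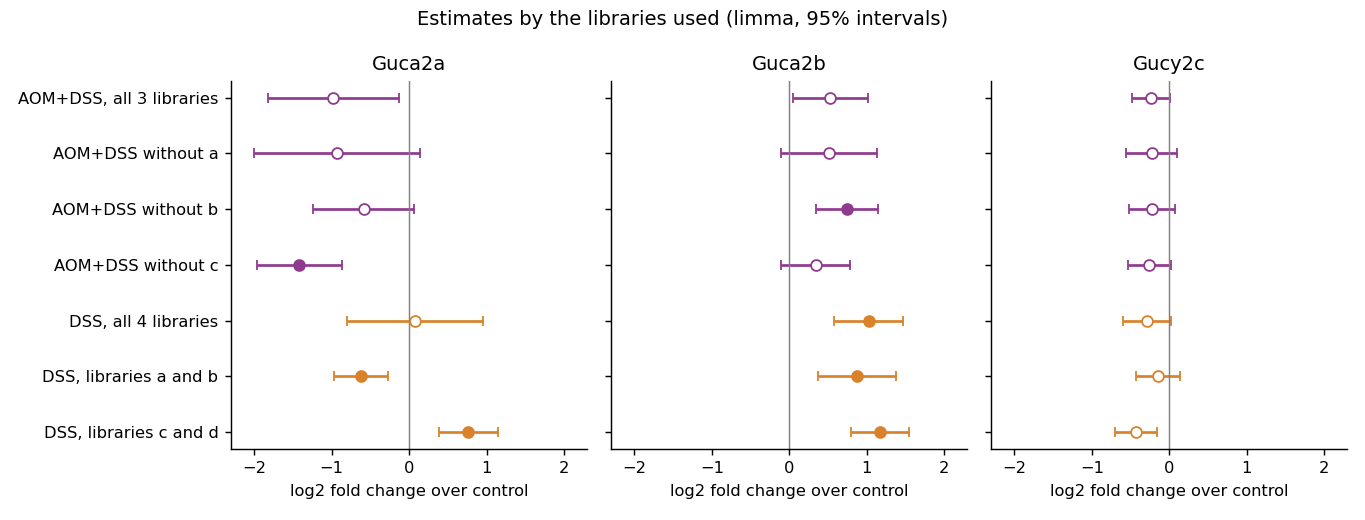
Log2 fold changes over control (horizontal axes) of the 3 genes by limma for the AOM+DSS libraries together and without each in turn, and for the DSS libraries together and in pairs (rows). Bars are 95% intervals, and filled points have an adjusted p under 0.05. Guca2b is positive in every row, Guca2a is at -0.62 with DSS libraries a and b and at 0.77 with c and d, and no Gucy2c point is filled.

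The receptor did not pass in either comparison. Gucy2c had 5781, 6212, 5095 and 4760 normalized reads in the DSS libraries (a to d), while the controls had 6816, 7243 and 5929. DSS library b lay above the lowest control, so the groups overlapped. The mean was 5462 ± 656 in DSS and 6663 ± 670.1 in control (SD, n = 4 and 3), a log2 value of -0.29 that did not pass in the authors' deposited table (adjusted p = 0.718). It had 5564, 5548 and 5786 normalized reads in AOM+DSS libraries a to c, a mean of 5633 ± 133 (SD, n = 3). All 3 lay below all controls, at a log2 value of -0.24 that did not pass in the authors' deposited table (adjusted p = 0.641). The libraries of AOM+DSS and control were apart, with AOM+DSS lower, for 21.5% and, with AOM+DSS higher, for 23.4% of 13815 genes whose mean reached 10, so this separation is common in that comparison. By limma the differences had 95% intervals of -0.49 to 0.01 in AOM+DSS and -0.60 to 0.02 in DSS on the log2 scale, and all alternatives tried kept them below 0 with no adjusted p under 0.05. A change beyond -0.60 in the receptor transcript lies outside both intervals of this fit. The DSS interval reached -0.73 without control library c. With the GC and length trends removed both intervals lay below 0, at -0.49 to -0.06 in AOM+DSS and -0.50 to -0.05 in DSS.

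Between the treatments none of the 3 genes was called. Guca2a was 1.05 lower on the log2 scale in AOM+DSS than in DSS (95% interval -2.16 to 0.05, adjusted p = 0.422 by limma), Guca2b stood at -0.49 (adjusted p = 0.449) and Gucy2c at 0.05 (95% interval -0.24 to 0.34, adjusted p = 0.887). The authors' form of test on the recovered reads called none of them either (adjusted p of 0.969 to 1), and all 3 of limma's intervals include 0. In the limma fit 1.71% of 18315 genes were called in either direction. Against DSS libraries c and d alone the Guca2a difference was -1.75 (adjusted p = 0.0451 by limma), and against a and b alone it was -0.36 (adjusted p = 0.775 by limma). As these sets were chosen after the values had been seen, with Guca2a highest in c and d, the first p-value adds no support.

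Within a library the balance between the hormones lay on the same side of control in both treatments, which share the control libraries. The number of Guca2a reads for each Guca2b read was 11.6, 9.92 and 18.0 in AOM+DSS libraries a to c. It was 14.8, 11.2, 28.0 and 26.9 in DSS libraries a to d, and 34.4, 36.4 and 38.4 in control. All 7 treated libraries lay below all 3 controls. How often the ratios of other gene pairs part the groups in this way was not worked out. The mean ratio was 13.2 ± 4.24 in AOM+DSS and 36.4 ± 1.97 in control (SD, n = 3 each), a log2 difference of -1.51 with an exact two-sided permutation p of 0.1, the smallest that 3 against 3 allows. In DSS it was 20.2 ± 8.48, against 36.4 ± 1.97 in control (SD, n = 4 and 3), a log2 difference of -0.95 with an exact two-sided permutation p of 0.0857, where 0.0286 is the smallest possible. After adjustment over the 9 ratio comparisons made, both exact p-values were 0.225, so neither passed. Being a ratio of reads in one library, it does not depend on the scaling between libraries, and per base of transcript the ratio was 35.1, 37.1 and 39.1 in control. This ratio was chosen after the values had been seen, and a ratio does not tell which of its genes differs.

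The ratio of Guca2b to the receptor was higher in the treated libraries, without passing. For each Gucy2c read there were 0.0846 to 0.180 Guca2b reads in DSS, with a mean of 0.129 ± 0.0390, against 0.0505 ± 0.0101 in control (SD, n = 4 and 3), and no library overlapped. The exact two-sided permutation p was 0.0286, the smallest possible, and 0.225 after adjustment over the 9 comparisons. In AOM+DSS the ratio was 0.0870 ± 0.0217, against 0.0505 ± 0.0101 in control (SD, n = 3 each), again without overlap, and the exact p was 0.1. For this ratio too, the share of other gene pairs without overlap was not worked out. The transcripts differ in length (605 bases for Guca2b and 3863 for Gucy2c). The part of the libraries' length trends in this ratio was not tested. For Guca2a over Gucy2c the groups overlapped, at 0.639 to 1.93 in AOM+DSS, 1.25 to 4.82 in DSS and 1.51 to 2.36 in control.

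**Figure D3:**
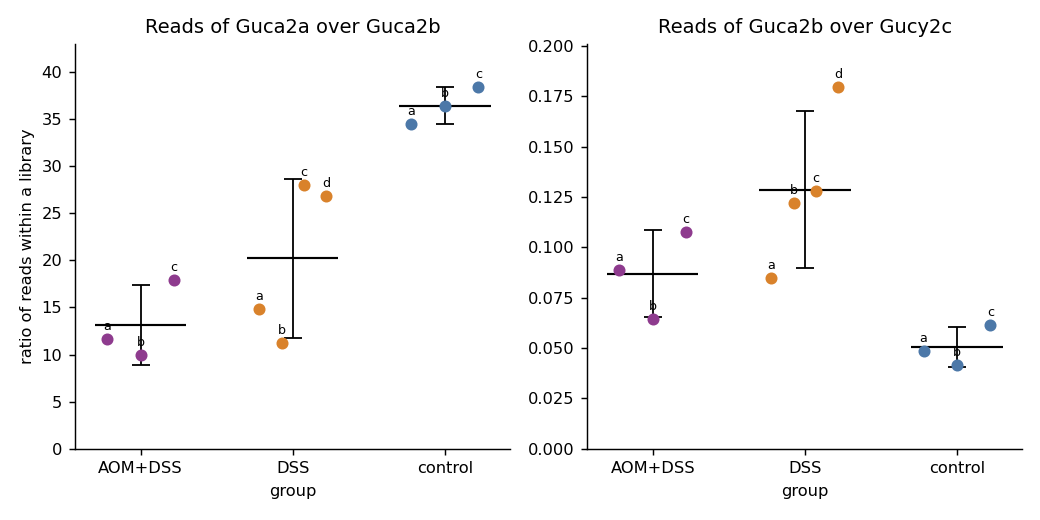
Ratios of reads within each library (vertical axes, from 0) for Guca2a over Guca2b and for Guca2b over Gucy2c in AOM+DSS, DSS and control (horizontal axes). Points are libraries with their letters, lines are group means and bars are SD. On the left all controls, at 34.4 to 38.4, lie above every treated library; on the right every treated library lies above the controls.

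The hormones were also set beside markers of epithelial cell types. Per 1000 summed reads of 14 absorptive colonocyte markers there were 54.8, 37.5 and 74.1 Guca2a reads in AOM+DSS, 61.9, 80.2, 93.1 and 115 in DSS, and 73.9, 62.0 and 105 in control. All 3 groups overlapped on this scale. Guca2b gave 4.72, 3.78 and 4.13 reads per 1000 in AOM+DSS, 4.18, 7.18, 3.33 and 4.27 in DSS, and 2.15, 1.70 and 2.73 in control. Every treated library lay above every control, as was so for 6.56% of 13705 genes on this scale. The same held per 1000 reads of 11 goblet cell markers (7.39 to 8.66 in AOM+DSS, 6.95 to 11.4 in DSS and 4.07 to 4.84 in control) and of 6 pan-epithelial markers (5.82 to 9.11 in AOM+DSS, 7.64 to 12.5 in DSS and 4.61 to 5.49 in control), where 5.25% and 4.63% of these genes did so. These are descriptions with no test, and the lists rest on the markers whose reads were recovered in all libraries. The pan-epithelial sum therefore leaves out Epcam and Krt8 among others, and the goblet sum leaves out the abundant Muc2, Clca3 and Fcgbp. Of 14 absorptive markers tested, 1 was called higher and 2 lower in AOM+DSS and 0 higher and 2 lower in DSS in the authors' deposited tables. Over all genes tested, 5.54% were called higher and 3.35% lower in AOM+DSS, and 2.61% higher and 1.78% lower in DSS. So few calls are not a result about the absorptive markers. Slc20a1, a phosphate transporter, had the lowest log2 value of the list in both tables, where it fell by 2.59 in AOM+DSS and fell by 2.40 in DSS on the log2 scale. The other calls were Car2, at -0.85 in AOM+DSS and -0.73 in DSS, and Emp1, at 1.72 in AOM+DSS. The median log2 value of the list was -0.11 in AOM+DSS and 0.20 in DSS, so Slc20a1 does not stand for the list.

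**Figure D4:**
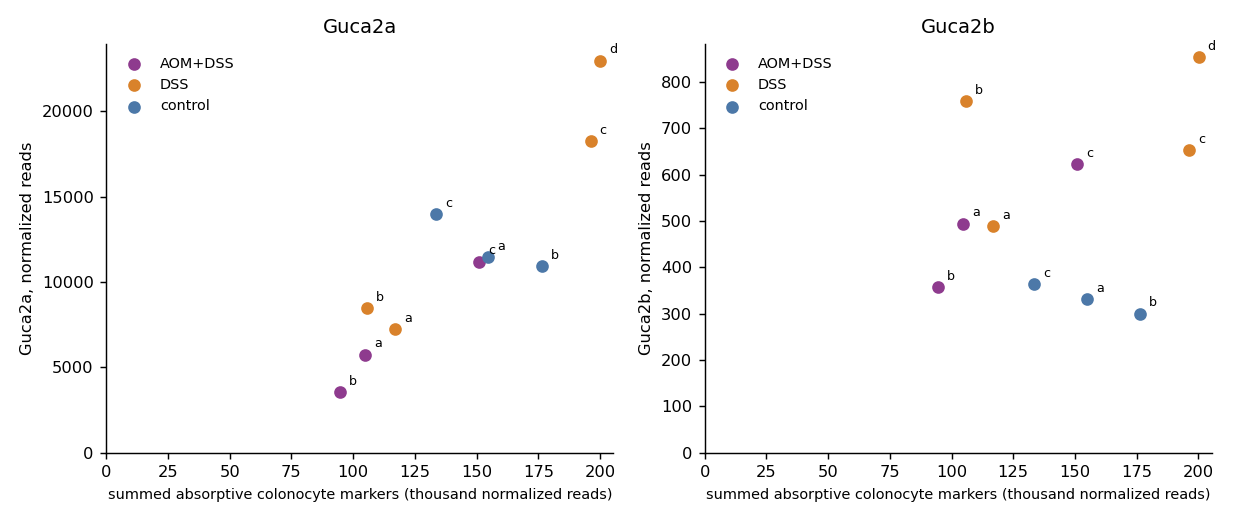
Normalized reads of Guca2a and of Guca2b (vertical axes) against the summed normalized reads of 14 absorptive colonocyte markers (horizontal axes, reads divided by 1000), 1 lettered point per library, all axes from 0. Guca2a is highest in DSS libraries c and d, which have the highest marker sums (196158 and 200093 reads). The 3 controls, with sums of 133602 to 176396 reads, and AOM+DSS library b have the lowest Guca2b.

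Of the genes that receive or end the cyclic GMP signal, Prkg2, Pde9a and Abcc5 rose and Pde2a fell in AOM+DSS, and the others did not pass the authors' test. Of 20 effector, breakdown and export genes 19 could be tested, and 3 rose and 1 fell in AOM+DSS, while 1 rose in DSS, in the authors' deposited tables. Over all genes tested, 5.54% were called higher and 3.35% lower in AOM+DSS, and 2.61% higher in DSS. Their median log2 value was 0.82 in AOM+DSS and 0.31 in DSS, against 0.02 over all genes tested in each. These medians count scarce genes too. Prkg1, at log2 3.42 in AOM+DSS, had means of 3.77 normalized reads there and 0.353 in control. Vasp and Pde9a, with the highest means of the list, stood at 0.09 and 1.18 in AOM+DSS, so the median is not a result about the list as a whole. By limma 5 rose in AOM+DSS and 1 in DSS. Prkg2, the membrane-bound cyclic GMP-dependent kinase of the intestinal epithelium, had 524, 725 and 179 normalized reads in AOM+DSS libraries a to c, 106, 107, 89.2 and 72.9 in DSS libraries a to d, and 11.6, 74.1 and 16.9 in control. All AOM+DSS libraries lay above all controls, as was so for 23.4% of the 13815 genes compared. Control library b overlapped DSS. The rise in AOM+DSS was 13.9-fold on the authors' scale (log2 3.80, adjusted p = 0.00627 in their deposited table), and the DSS value of 1.46 did not pass there (adjusted p = 0.569).

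Abcc5, an exporter of cyclic nucleotides, rose in both treatments. It had 343, 475 and 250 normalized reads in AOM+DSS, 326, 220, 207 and 254 in DSS, and 78.2, 102 and 71.0 in control. No treated library overlapped the controls. Such separation, with the treated group higher, held for 23.4% of the 13815 genes compared in AOM+DSS. In DSS it held for 12.6% of 13447 genes. The log2 changes of Abcc5 were 2.09 in AOM+DSS (adjusted p = 1.98e-06) and 1.59 in DSS (adjusted p = 0.000518) in the authors' deposited tables. Pde9a, a phosphodiesterase that breaks down cyclic GMP, had 11026, 15555 and 8722 normalized reads in AOM+DSS, against 4386, 4494 and 6681 in control, and its log2 change was 1.18 (adjusted p = 0.0257, from the authors' deposited table). Pde2a, a phosphodiesterase that cyclic GMP stimulates, fell by 0.76 in AOM+DSS (adjusted p = 0.0196, from the authors' deposited table), with 1861, 1048 and 2732 normalized reads against 2638, 3262 and 3629 in control. By limma Pde2a did not pass (adjusted p = 0.0980). Pde5a, which also breaks down cyclic GMP, stood at log2 0.17 in AOM+DSS (adjusted p = 0.885) and 0.24 in DSS (adjusted p = 0.713) in the authors' deposited tables.

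The other guanylate cyclases and natriuretic peptides were scarce in these crypts. Of 14 such genes, 0 of 14 tested in AOM+DSS and 0 of 13 in DSS passed in the authors' deposited tables, and limma also called 0. At an unadjusted p under 0.05 there were 0 by the authors' test and 1 by limma, in AOM+DSS. The pair with the highest means over the groups were the natriuretic peptide receptors Npr1, with 22.3 to 42.0 normalized reads in AOM+DSS, 14.8 to 21.7 in DSS and 10.6 to 34.6 in control, and Npr2, with 4.46 to 36.5 in AOM+DSS, 0.790 to 3.30 in DSS and 1.06 to 28.6 in control. In DSS alone the mean of Npr2 (1.76) was below those of the soluble cyclase subunits Gucy1a3 (3.56) and Gucy1b3. Npr2 was highest in AOM+DSS library c (36.5) and control library b (28.6), the libraries with the most fibroblast and smooth muscle markers. Of 7 genes of the receptor's scaffold and partners, 0 passed in the authors' deposited tables (1 at an unadjusted p under 0.05 in each), and limma called 0 of 6 (3 in AOM+DSS and 1 in DSS at an unadjusted p under 0.05). Hsp90ab1, a chaperone, stood at log2 0.08 in AOM+DSS and 0.12 in DSS, and Hsp90aa1, its inducible relative, at 0.33 and 0.44. The median log2 value of these partners was -0.50 in AOM+DSS and -0.11 in DSS.

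Among the ion transporters through which the pathway moves fluid, the authors' calls were all lower. Of 14 tested, 4 fell in AOM+DSS and 2 in DSS in the authors' deposited tables, with median log2 values of -0.50 and -0.16. Over all genes tested, 3.35% were called lower in AOM+DSS and 1.78% in DSS. Limma called as many lower and 1 higher in AOM+DSS, for Slc12a2, a sodium-potassium-chloride cotransporter. Kcnq1, a potassium channel that sustains chloride secretion, had 1566, 1646 and 1314 normalized reads in AOM+DSS, 1201, 1656, 1634 and 1745 in DSS, and 2732, 2818 and 3597 in control. It fell by 1.02 (log2) in AOM+DSS (adjusted p = 0.000283) and by 0.97 in DSS (adjusted p = 0.000104), both in the authors' deposited tables. Kcne3, its partner subunit, fell by 0.78 in AOM+DSS (adjusted p = 0.00457) and by 0.60 in DSS (adjusted p = 0.0316) in those tables, with 1975 to 3271 normalized reads in AOM+DSS, 2243 to 3519 in DSS and 4284 to 4968 in control. By limma the DSS value of Kcne3 did not pass (adjusted p = 0.0711), while that of Ano1 did (log2 -0.54, adjusted p = 0.0274). Ano1, a calcium-activated chloride channel, fell by 0.93 (adjusted p = 0.000226) and Slc4a4, a sodium bicarbonate cotransporter, fell by 0.99 (adjusted p = 0.00827), both in AOM+DSS by the authors' deposited table. Of the direct targets, Cftr had 2912 ± 522 normalized reads in AOM+DSS, 3195 ± 1026 in DSS and 3399 ± 219 in control, and Slc9a3, which encodes NHE3, had 2468 ± 881, 2246 ± 1260 and 1710 ± 665 in the same groups (SD, n = 3, 4 and 3). Neither passed in either comparison in the authors' deposited tables.

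**Figure D5:**
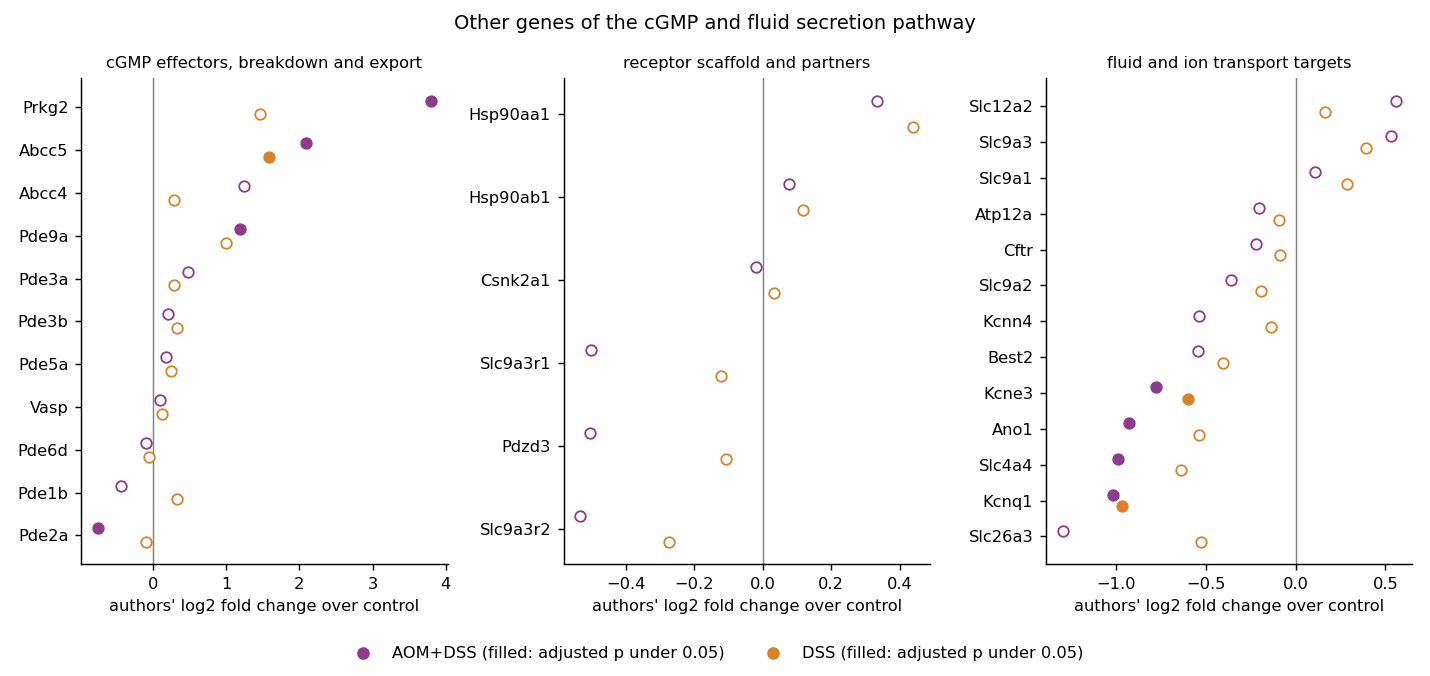
The authors' log2 fold changes over control (horizontal axes) of the genes with a mean of at least 100 in some group from 3 lists of the cyclic GMP and fluid secretion pathway (rows, one panel per list), with AOM+DSS above DSS for each gene. Filled points have an adjusted p under 0.05. Prkg2 at 3.80 and Abcc5 at 2.09 lead the first panel, the second has no filled point, and all filled points of the third lie below 0.

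Of 15 transcription factors reported to act on these genes or their cells, 2 fell in AOM+DSS and 1 in DSS in the authors' deposited tables, with median log2 values of -0.22 and 0.07, where 3.35% and 1.78% of all genes tested were called lower. Hes1, a Notch target that favours the absorptive fate, had 1567, 1215 and 1297 normalized reads in AOM+DSS, 1057, 1561, 1372 and 1306 in DSS, and 2161, 1852 and 2427 in control. No treated library overlapped the controls. Such separation, with the treated group lower, held for 21.5% of the 13815 genes compared in AOM+DSS. In DSS it held for 11.7% of 13447 genes, so it is common. Hes1 fell by 0.66 in AOM+DSS (adjusted p = 0.0460) and by 0.70 in DSS (adjusted p = 0.0231) in the authors' deposited tables. Foxa2, a forkhead factor of gut endoderm, fell by 1.13 in AOM+DSS (adjusted p = 0.00393, from the authors' deposited table). Its 410.3 to 717 normalized reads there lay below the 874 to 1651 of control. The same share of 21.5% applies to this separation. Of the factors whose motifs were searched in the promoters, Gata6 stood at log2 -0.22 in AOM+DSS and -0.21 in DSS, Cdx1 at -0.66 and -0.06, and Cdx2 at 0.60 and 0.92. None of these values passed in the authors' deposited tables, where the adjusted p of Cdx1 in AOM+DSS was 0.0684.

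The genes around the members mostly showed no call. The order of genes was read from GENCODE M21, as the files' own build was not at hand, and among the 5 genes with a row on each side, 1 of 10 tested around the peptide pair fell in each comparison in the authors' deposited tables, where 3.35% of all genes fell in AOM+DSS and 1.78% in DSS. One call among so few genes is not a result about the locus. It was Edn2, the gene of the peptide endothelin 2, with 141, 52.1 and 210 normalized reads in AOM+DSS, 164, 228, 244 and 299 in DSS, and 439, 358 and 413 in control. In the authors' deposited tables Edn2 fell by 1.59 in AOM+DSS (adjusted p = 5.46e-06) and by 0.79 in DSS (adjusted p = 0.0464), both as log2. Around Gucy2c, Plbd1, a phospholipase B-like gene next to it, was the one called of 9 tested in AOM+DSS and of 10 in DSS, and it fell by 1.34 (adjusted p = 2.94e-06) and by 0.82 (adjusted p = 0.0328) in the authors' deposited tables. Hivep3, on the other side of Guca2b from Guca2a, stood at log2 -0.21 in AOM+DSS and 0.12 in DSS (adjusted p = 1 in both of the authors' deposited tables).

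The genes most like each member were taken by distance over its pair of log2 fold changes, AOM+DSS against control and DSS against control, which share the control libraries, among 10568 other genes with a control mean of at least 100. For Guca2b the closest were Macf1, which encodes a cytoskeletal linker, at a distance of 0.0398 and Gprc5a, an orphan receptor, at 0.0713, followed by Tmem43, Fermt3 and Glipr2. For Guca2a they were Inpp5j, an inositol phosphatase, at 0.0730 and Hsd3b2, an enzyme of steroid synthesis, at 0.0812, then Rgl3, Cd83 and A630001G21Rik. For Gucy2c they were Cuedc2, Osgin2, Zbtb8a, Ppp3ca and Wdr73, all within 0.0127. The distances rest on 2 values per gene and say nothing of the single libraries.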

How the data were processed

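Poly(A) RNA of distal colon crypts was measured in 10 libraries, grouped by the labels' treatment field and titles. The submitters' processing notes name TopHat2 2.0, the mm9 build and DESeq. No source used here gives the read counter, annotation or strand setting. Per the file headers, the deposited signal columns are group means of counts scaled for library size. The deposited fold change of the authors is a ratio of these means, and the log2 column is its logarithm, per the file headers. The deposited p-values are the authors', with adjusted values beside them, and under 0.05 counted as called. The header of one table speaks of 4 replicates in its treated group where the labels list 3, and its means resolve into 3 libraries.

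Reads per library were solved from the group means, which are printed to 15 digits. Each mean is a sum of whole reads divided by size factors, and where several combinations matched, the one that also gave the authors' p-values was kept (3339 genes). All 1449 of the authors' p-values that were recomputed from recovered reads agreed within a relative 1e-06. Reads were recovered for 99.9%, 99.7% and 99.8% of genes in AOM+DSS, DSS and control, which hold 94.9%, 90.6% and 91.6% of the mean totals, so sums and depths leave out some genes with high means. Guca2b was settled by the means alone. For Guca2a and Gucy2c in DSS, 10774 and 57 combinations matched the mean, and exactly 1 joint solution gave both of the authors' p-values, so their values by library rest on that step. Within groups, pairs of libraries differed by 7.93 to 85.6 chi-square units per degree of freedom, so no pair differed by counting noise alone. These values cannot tell whether libraries came from separate mice or from repeat preparations of the same RNA.

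Each pair of groups was tested with limma 3.58.1 in R 4.3.3, with a mean-variance trend, on the log2(normalized reads + 1) scale and with Benjamini-Hochberg adjustment over all genes, and ratios were compared with exact permutation tests. Recovery and limma were tested on simulated data. Transcript lengths and GC content came from GENCODE M21 (found for 93.0% of symbols). Alternatives were other thresholds, pseudocounts, filters and scalings, leaving out each library and, chosen after seeing the data, pairs of DSS libraries, GC and length trends and, between the treatments, the authors' form of test. One item is not reported here. The members and lists were chosen with earlier results of these data known. Named are the 3 members, the called genes of each pathway list or otherwise the 2 with the highest mean, and the 5 closest genes by fold changes. Cftr, Slc9a3, Pde5a, Prkg1, Vasp, Gata6, Cdx1, Cdx2, Slc12a2, Epcam, Slc20a1, Krt8, Muc2, Clca3, Fcgbp, Npr2 in single libraries and the neighbours Edn2, Plbd1 and Hivep3 were picked for their roles or after their values were seen. Car2 and Emp1 were named as the other called absorptive markers.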

Additional observations from a re-analysis of the deposited data

Results flagged for a closer look

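The sum of fibroblast and smooth muscle markers in DSS library b, 394.66 normalized reads, stood apart from the other DSS libraries, whose sums were 251.36 to 271.43. It is the one value that stood apart among 19 sets of 4 DSS values checked (the 3 members, their 3 ratios and 13 marker lists), and chance marks about 1 set in 20. The sum is small beside the 444.2 to 11555 of AOM+DSS and within the 97.4 to 2402 of control.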

How the results depend on the processing

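Gucy2c against control kept its direction, with no adjusted p under 0.05, in all 15 alternatives in DSS and all 12 in AOM+DSS. Guca2b in DSS was higher in all 15 (log2 0.88 to 1.18); it missed an adjusted p of 0.01 (0.0106 at log2 1.05), and leaving out single libraries gave 0.91 to 1.18, of which 3 of 7 missed 0.05. Guca2b in AOM+DSS gave 0.34 to 0.74 without single libraries and 0.64, now called, without the GC and length trends. Guca2a in DSS reversed with libraries a and b only (-0.62) and was called higher with c and d only (0.77); without single libraries it ran from -0.21 to 0.34 and was below 0 without c (-0.10) and without d (-0.21). Guca2a in AOM+DSS gave -1.42 to -0.59. Against DSS, Guca2a in AOM+DSS was called with c and d only (-1.75) and gave -1.49 to -0.66 without single libraries, and Gucy2c reversed with a and b only (-0.090) and ran from -0.012 to 0.12 without single libraries, below 0 without d. The causes were not tested. Pathway genes lower in DSS numbered 3, or 1 at an adjusted p of 0.01; those higher in AOM+DSS numbered 3, or 6 by limma. Called neighbours in AOM+DSS numbered 2 with 5 genes on each side and 5 with 10, by construction a larger set. Over all genes, the authors called 472 higher and 322 lower in DSS and limma 608 and 461; without control library a limma called 119 and 59, and without c 113 and 72. In AOM+DSS the authors called 1016 higher and 614 lower, and limma 1970 and 1187. The log2 ratio of Guca2a to Guca2b stayed below 0 on leaving out each library in turn, from -1.15 to -0.70 in DSS (-1.50 with libraries a and b only and -0.41 with c and d only) and -1.76 to -1.33 in AOM+DSS. No paired analysis was possible because the recovered libraries carry no replicate number of the labels. The lowest value of a member was 304 reads (Guca2b in control library b). The DSS libraries a and b are deeper than c and d, and the part of depth in the Guca2a values was not tested.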
